A study of Mus musculus with 14 samples.

Results

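Krt4 and 9 genes of the mammary epithelial cytoskeleton and its basal layer were followed across 14 arrays of mouse mammary gland. The 10 genes were Krt4, the basal keratins Krt5, Krt14, Krt15 and Krt17, the simple and luminal keratins Krt7, Krt8, Krt18 and Krt19, and Trp63, the transcription factor p63 of basal epithelial cells. They were found by gene symbol among the 18193 genes with a probe set (the group of oligonucleotides that reads a transcript on the array) annotated to that gene alone, and they had 19 such probe sets of 45037. Where a gene had several, the brightest by its mean level describes it, and the others are given where they bear on a result. The genes were chosen by what these arrays showed for 17-beta-estradiol (E2) against vehicle, Krt4 above all, so that contrast is a description here and carries no test.

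All glands came from ovariectomized female C57BL/6 mice that were 11 to 12 weeks old on arrival, acclimatized for 1 week, and were treated 7 days after removal of the ovaries and killed 3 h after treatment. The 10 groups received vehicle, E2, acolbifene, fulvestrant, raloxifene, tamoxifen, or E2 together with acolbifene, fulvestrant, raloxifene or tamoxifen. Acolbifene was given as the hydrochloride EM-652.HCl and tamoxifen as the citrate. There were 2 arrays for each of vehicle, E2, acolbifene and E2+acolbifene, and 1 for each of the other 6 groups. Groups held 8 animals by the labels, and their glands were pooled. The labels do not say whether a group's pair of arrays was made from separate pools, so p-values measure only the spread between these arrays, which may be technical. No blocker dose is stated in the labels used here.

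Keratins are the intermediate filament proteins of epithelial cells, and they assemble as pairs of a type I and a type II protein. In the mammary gland, Krt8, Krt18 and Krt19 are known from the luminal cells that line ducts, and Krt5, Krt14 and Krt17 from the basal and myoepithelial layer, where p63 is found. Krt4 is known best from stratified linings such as that of the oesophagus. Estradiol acts through estrogen receptors, which bind DNA at estrogen response elements or through other factors. Fulvestrant is a steroidal pure antiestrogen that leads to receptor degradation, whereas raloxifene (a benzothiophene), acolbifene (a benzopyran) and tamoxifen (a triphenylethylene) are not steroids and are known as selective estrogen receptor modulators.

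The labelled tissue was checked against its markers. On the log2 scale of the deposited values, the epithelial adhesion gene Epcam lay between 10.10 and 10.43 over the 14 arrays, the smooth muscle myosin Myh11 of myoepithelial and vessel cells between 9.22 and 9.51, the adipocyte hormone Adipoq between 13.70 and 14.01, and the leukocyte gene Ptprc between 12.28 and 12.79. Genes of skin keratinocytes varied in level. Krt10 lay between 7.31 and 9.29, Krt1 between 6.13 and 7.88 and the cornified envelope gene Lor between 6.40 and 7.59. The envelope gene Flg, at 4.12 to 5.13, lay below the 40 percentile of mean level (6.65), called dim here. Krt2, Krt16, Ivl and Calml3 of the keratinocyte list were dim as well. A level is not a detection call, so the presence of these transcripts was not tested. Of the 7 marker and junction lists, that of skeletal muscle varied most between arrays: the median of 16 such genes against the vehicle mean ran from -1.50 in the E2+raloxifene array to 0.71 in the fulvestrant array, and it was -0.82 in E2 array 1 and 0.43 in E2 array 2. The raw-file names of E2 array 1 and of the 6 unreplicated arrays begin with R136 and those of the other 7 arrays with R137, a code whose meaning is not stated. The letters or digits after that code are the same for the raloxifene array and both E2+acolbifene arrays, and their meaning is not stated either. In pooled bulk tissue, fewer cells of a type and less RNA per cell cannot be told apart.

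Promoter windows of the epithelial keratins are shown to let the basal and the luminal genes be compared. RefSeq's promoter table (assembly GRCm38.p6, 250 bases before to 50 after the start) held 5 of the 10 genes: Krt5, Krt7, Krt8, Krt14 and Krt18. The windows of Krt5 (chr15:101712856-101713155, minus strand), Krt7 (chr15:101412153-101412452, plus strand), Krt8 (chr15:102004293-102004592, minus strand) and Krt18 (chr15:102027966-102028265, plus strand) read 5′ to 3′ as follows. Capitals mark GGTCA on either strand (TGACC when it lies on the other strand), the repeat unit of an estrogen response element, and TATAAA on either strand.
Krt5: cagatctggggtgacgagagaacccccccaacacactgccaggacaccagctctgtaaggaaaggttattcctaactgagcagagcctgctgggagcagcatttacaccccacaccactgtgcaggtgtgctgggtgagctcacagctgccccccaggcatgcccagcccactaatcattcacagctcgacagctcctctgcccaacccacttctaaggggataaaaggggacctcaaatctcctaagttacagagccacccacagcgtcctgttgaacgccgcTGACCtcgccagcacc
Krt7: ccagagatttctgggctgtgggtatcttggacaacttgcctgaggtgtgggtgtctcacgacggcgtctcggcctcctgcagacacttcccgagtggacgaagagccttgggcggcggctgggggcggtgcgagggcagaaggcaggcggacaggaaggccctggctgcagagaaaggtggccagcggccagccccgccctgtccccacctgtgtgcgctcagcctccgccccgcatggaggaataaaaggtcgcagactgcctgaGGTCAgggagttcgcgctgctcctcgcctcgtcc
Krt8: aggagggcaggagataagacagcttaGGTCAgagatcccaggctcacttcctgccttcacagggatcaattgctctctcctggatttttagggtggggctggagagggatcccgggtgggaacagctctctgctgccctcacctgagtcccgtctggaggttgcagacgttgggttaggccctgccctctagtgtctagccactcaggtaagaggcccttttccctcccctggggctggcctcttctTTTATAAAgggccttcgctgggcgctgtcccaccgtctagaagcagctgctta
Krt18: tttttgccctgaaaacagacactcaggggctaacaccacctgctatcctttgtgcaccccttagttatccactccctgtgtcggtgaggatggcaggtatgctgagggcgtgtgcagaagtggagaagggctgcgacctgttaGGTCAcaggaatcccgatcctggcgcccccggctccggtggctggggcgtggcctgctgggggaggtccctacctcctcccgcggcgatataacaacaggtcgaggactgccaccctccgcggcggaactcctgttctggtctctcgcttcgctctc
The window listed for Krt14 (chr11:100205981-100206280, minus strand) lies 1480 bases inside the annotated gene, so its letters are not shown. The full estrogen response element searched, GGTCA, any 3 bases and TGACC, was in 0 of the 5 windows and in 0.07% of the 32851 promoters of the table. GGTCA was found in Krt5 (other strand, from base 285 of the window), Krt7 (base 267), Krt8 (base 27) and Krt18 (base 144) and not in Krt14, against 40.5% of all promoters. TGANTCA, the AP-1 motif, was in 0 of the 5 windows (7.81% of all promoters), and TATAAA was in Krt8 alone, where a match on each strand overlaps the other (13.6% of all promoters). These matches are a description of letters. The basal gene Krt5 and the luminal genes Krt8 and Krt18 did not differ in the presence of GGTCA.

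Krt4 was the gene of the set that differed most between treatments. Among the combinations of E2 with a blocker, its level was lowest with acolbifene, intermediate with raloxifene and highest with fulvestrant and tamoxifen. The type II keratin Krt4 (probe set 1418735_at, chromosome 15) read 7.11 and 6.97 in the vehicle arrays, 10.95 and 10.38 in the E2 arrays, 7.19 and 7.20 in the acolbifene arrays, and 8.37 and 8.17 in the E2+acolbifene arrays. It read 7.15 with fulvestrant, 7.69 with tamoxifen, 7.87 with raloxifene, 9.24 with E2+raloxifene, 10.55 with E2+fulvestrant and 10.84 with E2+tamoxifen. The arrays with E2 and no acolbifene were thus the 5 highest, and E2+raloxifene was the lowest of them. Both E2 arrays lay above both vehicle arrays, with means of 10.67 ± 0.40 and 7.04 ± 0.10 (SD, n = 2 each) that were 3.62 apart on the log2 scale, or 12.3-fold. E2 array 2, which has the same raw-file code as the vehicle arrays, alone gave 3.34.

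**Figure D1:**
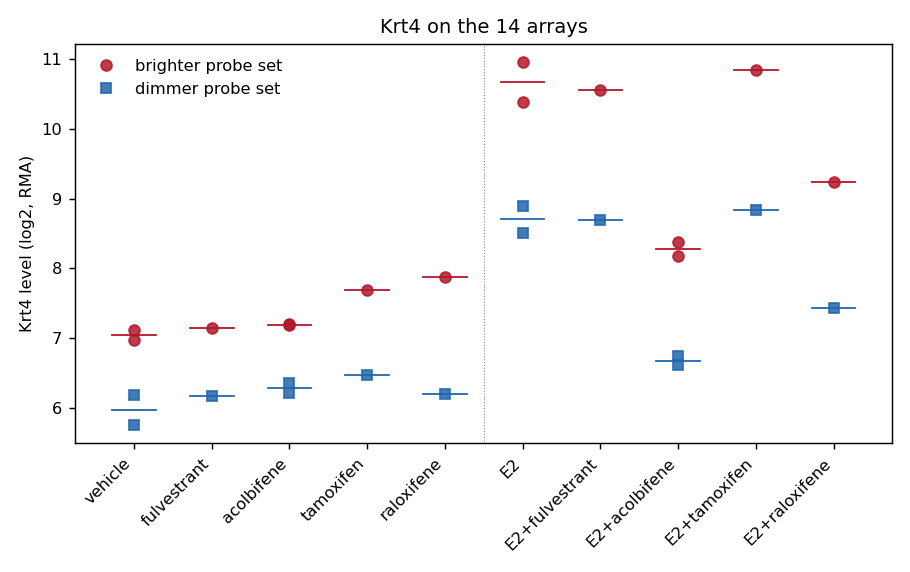
Krt4 level (log2, RMA) by treatment group for the brighter (circles) and the dimmer probe set (squares), each point 1 array and each bar the group mean, with the groups that received E2 to the right of the dotted line. E2, E2+fulvestrant and E2+tamoxifen lie at 10.38 to 10.95 on the brighter probe set, E2+raloxifene at 9.24, and E2+acolbifene at 8.17 and 8.37.

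Ordered by group mean, Krt4 ran from vehicle (7.04) through fulvestrant (7.15), acolbifene (7.19), tamoxifen (7.69), raloxifene (7.87), E2+acolbifene (8.27), E2+raloxifene (9.24), E2+fulvestrant (10.55) and E2 (10.67) to E2+tamoxifen (10.84). The largest gap between both arrays of a group was 0.57, in E2. Of the 9 steps in that order, those from E2+acolbifene to E2+raloxifene (0.97) and from E2+raloxifene to E2+fulvestrant (1.32) exceeded this gap, and the other neighbours did not differ beyond it. The dimmer Krt4 probe set (1438394_x_at) gave 5.76 and 6.18 with vehicle, 8.90 and 8.50 with E2, 6.74 and 6.62 with E2+acolbifene and 7.44 with E2+raloxifene. Its order was the same except that raloxifene came before acolbifene, and the same steps, 0.76 and 1.26, exceeded its largest gap of 0.43.

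Across the set, 6 of the 10 genes (Krt4, Krt5, Krt14, Krt17, Krt7 and Trp63) had both E2 arrays above both vehicle arrays, 0 had both below and 4 overlapped, while 22.0% of all probe sets had both E2 arrays above. The median E2 minus vehicle difference was 0.34 over the 10 genes and -0.02 over all probe sets. Krt4 was the gene of the set whose 12 other arrays all lay above both vehicle arrays, as 2.48% of all probe sets did. Because this contrast led to the choice of the genes, nothing is read from these counts.

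**Figure D2:**
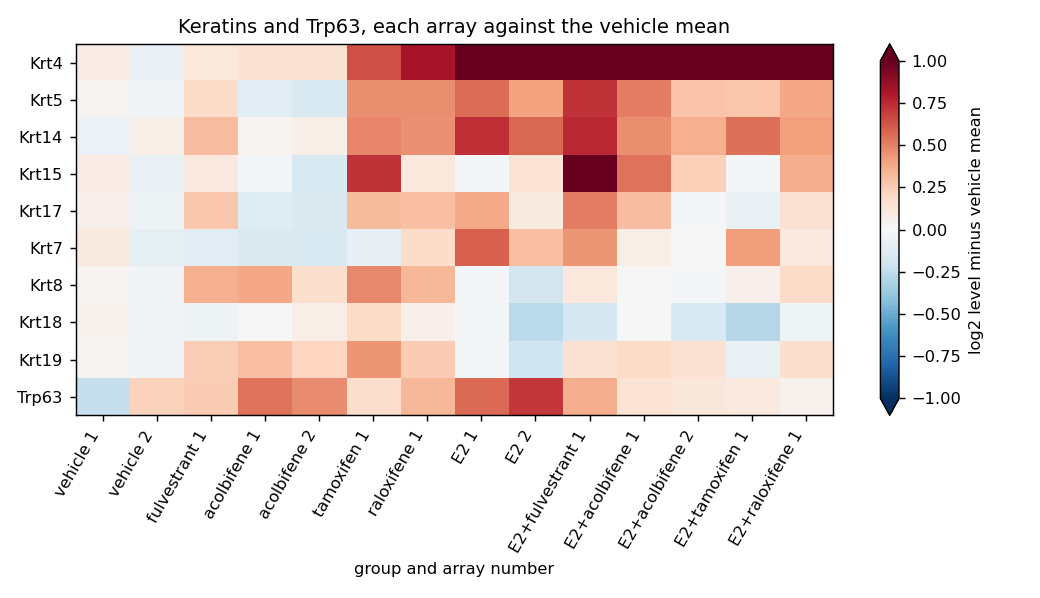
Level of each gene on each array minus its vehicle mean (log2; colour scale from blue, lower, to red, higher, ending at the arrow tips). Krt4 is high on the 7 arrays with E2, the basal keratins Krt5 and Krt14 are higher on most arrays other than vehicle and acolbifene, and Krt18 is pale throughout, with levels between 10.51 and 10.99.

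E2 was next compared within the acolbifene background, a contrast of 2 arrays with 2 that shares no array with E2 minus vehicle. Krt4 and 3 basal keratins rose: 4 of 10 genes were higher and 0 lower in E2+acolbifene than in acolbifene at an adjusted p under 0.05 (limma, Benjamini-Hochberg over all probe sets), against 9.20% of all probe sets in either direction, and the median difference was 0.23 over the 10 genes and -0.01 over all probe sets. Krt4 rose by 1.08 ± 0.15 (SE; 2.11-fold; adjusted p = 0.00871), and its arrays did not overlap between the groups. The dimmer Krt4 probe set differed by 0.40 and did not pass (adjusted p = 0.110). Krt5, the type II keratin of the basal layer, rose by 0.53 ± 0.10 (1.44-fold; adjusted p = 0.0190). Krt14, its type I partner, rose by 0.36 ± 0.094 (adjusted p = 0.0397), and Krt15, a type I keratin of basal cells of skin and hair follicle, by 0.47 ± 0.12 (adjusted p = 0.0361). Krt17, a dim signal at 5.34 to 6.00 over the 14 arrays, differed by 0.28 and did not pass (adjusted p = 0.150), whereas its dimmer probe set did, by 0.54 (adjusted p = 0.0291). The basal factor Trp63 went the other way without passing, by -0.38 on its brightest probe set, with arrays that did not overlap. Its other probe sets differed by 0.08, -0.0065 and 0.01. Krt7 differed by 0.18 and did not pass. The luminal genes did not pass: Krt8 differed by -0.29 (adjusted p = 0.0882), Krt18 by -0.11 and Krt19 by -0.09, and Krt18 and Krt19 turned to 0.07 and 0.08 when the values were quantile normalized again.

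The basal keratins differed by less than Krt4 did, as their per-array values show. Krt5 (1424096_at) read 8.69 and 8.63 with vehicle, 9.22 and 9.06 with E2, 8.54 and 8.51 with acolbifene, and 9.17 and 8.94 with E2+acolbifene. Krt14 (1423935_x_at) read 7.76 and 7.87 with vehicle, 8.54 and 8.39 with E2, 7.84 and 7.87 with acolbifene, and 8.28 and 8.17 with E2+acolbifene. For both genes the E2 and the E2+acolbifene arrays lay above all vehicle and acolbifene arrays. Krt15 (1422667_at) read 6.51 and 6.37 with vehicle, 6.43 and 6.58 with E2, 6.43 and 6.29 with acolbifene, and 6.98 and 6.68 with E2+acolbifene, so that E2 overlapped vehicle, while E2+acolbifene lay above the other 6 arrays. Krt14's other probe sets (1460347_at and the dim 1455573_at) differed by 0.46 and 0.36 between E2+acolbifene and acolbifene (adjusted p = 0.0549 and 0.0364).

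Leaving out single arrays changed each of these 4 calls. Krt5, Krt14 and Krt15 were each lost when either acolbifene array or either E2+acolbifene array was left out: the adjusted p was then 0.0596 to 0.0900 for Krt5, 0.0874 to 0.150 for Krt14 and 0.0917 to 0.144 for Krt15, with differences between 0.31 and 0.64. Krt14 was also lost without either vehicle array (adjusted p = 0.0502) and, like Krt15 (0.0933), after repeated quantile normalization (0.0525). Krt4 was lost without acolbifene array 1 (1.07, adjusted p = 0.0607) or without E2+acolbifene array 2 (1.18, adjusted p = 0.0626).

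Against E2 alone, Krt4 was lower in E2+acolbifene, and no other gene of the set passed on its brightest probe set. Krt4 fell by 2.40 on the log2 scale (SE 0.15; 5.26-fold lower; adjusted p = 0.000124), with no overlap between the arrays, and its dimmer probe set fell by 2.02 (adjusted p = 0.000254). This was 1 of 10 genes, against 3.66% of all probe sets. Krt7, the simple keratin of ductal and glandular linings, differed by -0.42 (adjusted p = 0.0578) and Trp63 by -0.51 (adjusted p = 0.0544). The other Trp63 probe sets differed by 0.19, 0.07 and -0.04. Krt14 differed by -0.24 on its brightest probe set, and its dim probe set 1455573_at was lower, with a log2 value of -0.36 (adjusted p = 0.0484). E2+acolbifene still exceeded vehicle for Krt4, by 1.23 ± 0.15 (2.34-fold; adjusted p = 0.00564), as 1 of 10 genes, against 0.837% of all probe sets. That call was lost without vehicle array 2 (1.16, adjusted p = 0.0841) or without E2+acolbifene array 1 (1.13, adjusted p = 0.0833), and the dimmer probe set differed by 0.71 (adjusted p = 0.0599). Both comparisons share arrays with the E2 minus vehicle contrast, the first its E2 arrays and the second its vehicle arrays.

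Acolbifene alone against vehicle called 0 of the 10 genes by limma, against 0.597% of all probe sets. At an unadjusted p under 0.05 there were 3, Krt8 (0.28), Krt19 (0.26) and Trp63 (0.51), against 7192 of all 45037 probe sets. The other Trp63 probe sets differed by 0.03, 0.09 and -0.19. Krt4 differed by 0.15, with a 95% interval from -0.19 to 0.49. Krt8 (1420647_a_at) read 10.25 and 10.19 with vehicle, 10.61 and 10.39 with acolbifene, 10.21 and 10.03 with E2, and 10.22 and 10.20 with E2+acolbifene. It read 10.70 with tamoxifen, 10.55 with raloxifene and 10.57 with fulvestrant, and 10.27, 10.41 and 10.32 when E2 was added to each. Krt8 was thus higher on the 5 arrays of a blocker alone than on most others, but E2+raloxifene overlapped the acolbifene arrays. Its partner Krt18 (1448169_at) lay between 10.51 and 10.99 on the 14 arrays and Krt19 (1417156_at) between 9.77 and 10.42, each lowest with E2 or E2+tamoxifen and highest with tamoxifen.

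In the other blocker backgrounds, Krt4 was also higher with E2, by amounts that are compared between blockers below. With 1 array a side, these tests borrow the spread within the vehicle, acolbifene and E2+acolbifene pairs. They assume that a lone array varies like those pairs. The code term takes up the difference between the E2 arrays, so that pair, the widest for Krt4 (gap 0.57), adds nothing to the spread. Each test compares arrays of the same raw-file code. Krt4 rose by 3.40 ± 0.14 (10.6-fold) from fulvestrant to E2+fulvestrant (adjusted p = 4.16e-05), as 1 of 10 genes against 0.384% of all probe sets. It rose by 3.16 ± 0.14 (8.92-fold) from tamoxifen to E2+tamoxifen (adjusted p = 8.32e-05; 0.180% of all probe sets called). It rose by 1.37 ± 0.14 (2.58-fold) from raloxifene to E2+raloxifene (adjusted p = 0.0153; 0.0333% called). The last call was lost without either vehicle array (1.37, adjusted p = 0.0553) and without the raw-file code as a term (adjusted p = 0.354), and the dimmer probe set differed by 1.24 (adjusted p = 0.190). With fulvestrant and tamoxifen the dimmer probe set rose too, by 2.53 (adjusted p = 0.000939) and 2.35 (adjusted p = 0.00321). Skeletal muscle genes differed in these comparisons too. In the fulvestrant background 8 of 16 fell, against 0.384% of all probe sets called, with a median of -0.79 over the list and -0.0046 over all probe sets. In the raloxifene background 10 of 16 fell, against 0.0333% called, with medians of -1.13 and 0.019. In the tamoxifen background the medians were -0.24 and -0.021. Their part in the Krt4 differences was not tested.

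**Figure D3:**
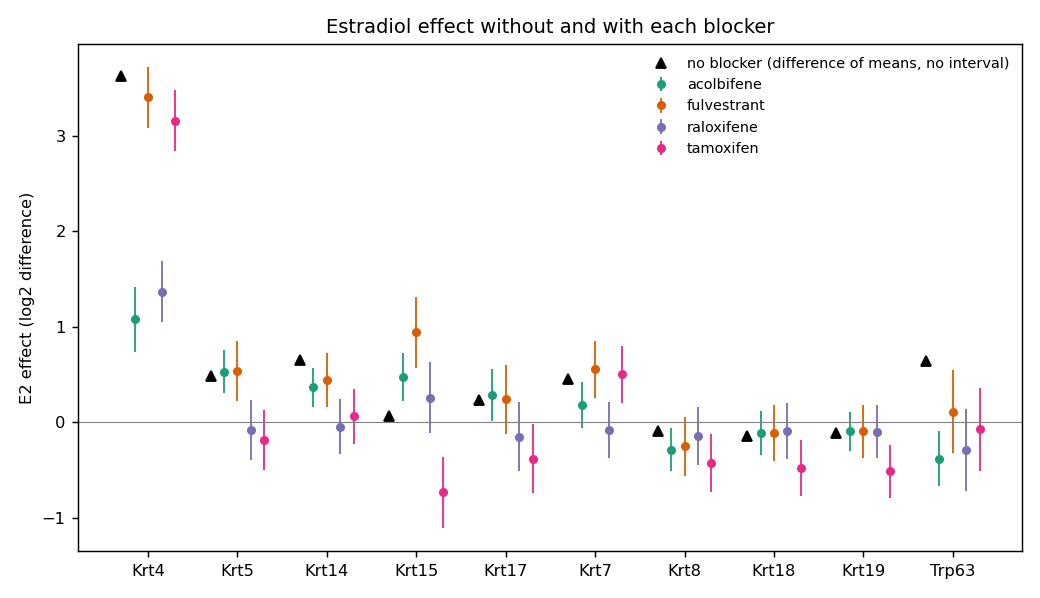
Difference that E2 made (log2) in each gene without a blocker (triangles, difference of means, no interval) and within each blocker background (circles, with 95% intervals from the fit). For Krt4 it was 3.62 without a blocker, 3.40 with fulvestrant, 3.16 with tamoxifen, 1.37 with raloxifene and 1.08 with acolbifene; the other genes lay between -0.73 and 0.94.

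The difference that E2 made to Krt4 was compared between the blockers in 6 pairs, chosen after the values were seen, in which the raw-file code cancels. The acolbifene minus fulvestrant value was -2.32 on the log2 scale (SE 0.17; adjusted p = 0.00161; 0.258% of all probe sets called), and acolbifene minus tamoxifen was -2.08 (SE 0.17; adjusted p = 0.00472; 0.0377% called). The E2 difference was larger with fulvestrant than with raloxifene by 2.03 ± 0.20 (adjusted p = 0.0206; 0.0111% called), a call lost without either vehicle array (adjusted p = 0.0659) or either acolbifene array (0.0732) and without the code term (0.157). On the dimmer probe set this difference was 1.29 and did not pass (adjusted p = 0.336). The raloxifene minus tamoxifen value was -1.79 ± 0.20 and missed the threshold over all probe sets (adjusted p = 0.0766; 0.00222% called). Acolbifene and raloxifene gave a difference of -0.29, with an interval from -0.68 to 0.10 (0.269% called), and the dimmer probe set gave -0.84. Fulvestrant and tamoxifen gave 0.25, with an interval from -0.20 to 0.70 (0.0289% called). In each of these 6 pairs the other 9 genes were not called. Adjusted over the 6 pairs alone, the Krt4 limma p-values were 1.16e-06, 1.57e-06, 4.49e-06, 1.02e-05, 0.152 and 0.250, in the order given.

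Read by structure, the Krt4 response to E2 was smaller with the benzopyran acolbifene than with the steroidal fulvestrant or the triphenylethylene tamoxifen, on both Krt4 probe sets. With the benzothiophene raloxifene it was smaller than with fulvestrant on the brighter probe set, with the exceptions just given, and the difference from tamoxifen missed the threshold over all probe sets. Without stated doses, whether the blockers were matched cannot be said. Direct pairs of the E2 combinations placed E2+raloxifene lowest of the 3 for Krt4: E2+fulvestrant exceeded E2+raloxifene by 1.32 ± 0.14 (adjusted p = 0.0105; 0.0644% of all probe sets called), a call lost without the code term (adjusted p = 0.130) and not made on the dimmer probe set (1.26, adjusted p = 0.0864), and E2+raloxifene lay below E2+tamoxifen by 1.61 on the log2 scale (value -1.61, SE 0.14; adjusted p = 0.00478; 0.102% called). On the dimmer probe set E2+raloxifene minus E2+tamoxifen was -1.39. E2+fulvestrant and E2+tamoxifen differed by -0.29, with an interval from -0.61 to 0.03 (0 of 10 genes; 0.0289% called). Adjusted over the 6 pairs of single-array groups, the Krt4 p-values from limma were 1.45e-05, 5.09e-06 and 0.0829.

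Against E2 array 1, the E2 array with the code of the single arrays, Krt4 was lower in E2+raloxifene by a fitted value of -1.72 ± 0.14 (adjusted p = 0.00455; 1 of 10 genes, 0.0955% of all probe sets). E2+fulvestrant gave -0.40, with an interval from -0.72 to -0.08 (adjusted p = 1.00; 0 of 10 genes, 0.0222% called), and E2+tamoxifen -0.11, with an interval from -0.43 to 0.21 (0 of 10 genes, 0.0133% called). At an unadjusted p under 0.05 limma gave 2 genes for each of the comparisons with 0 calls. Over all 45037 probe sets it gave 1934 for E2+fulvestrant and 6479 for E2+tamoxifen. All comparisons of this paragraph share E2 array 1 with the E2 minus vehicle contrast.

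Without E2, Krt4 was not called against vehicle with fulvestrant, raloxifene or tamoxifen. The fit, which reaches vehicle through both E2 arrays because no other group holds both codes, gave -0.47 for fulvestrant (0 of 10 genes called by limma, 2 at an unadjusted p under 0.05; 0.153% of all probe sets called). It gave 0.25 for raloxifene (0 called, 0 unadjusted; 0.00888%) and 0.07 for tamoxifen (0 called, 1 unadjusted; 0.0111%). Over all 45037 probe sets, limma gave an unadjusted p under 0.05 for 2486, 2162 and 2156 with fulvestrant, raloxifene and tamoxifen. Plain Krt4 differences of the arrays, without the code, were 0.11, 0.82 and 0.64, so the direction for fulvestrant turned with the code term. Among the blockers alone, fulvestrant lay below raloxifene by a Krt4 value of -0.72 (interval -1.04 to -0.40) and below tamoxifen by -0.54 (-0.86 to -0.22), and raloxifene minus tamoxifen was 0.18 (-0.14 to 0.50). Over all probe sets 0 of 10 genes passed in each of these pairs by limma, against 0.0333%, 0.0466% and 0.00222% of probe sets, with 1, 2 and 1 genes at an unadjusted p under 0.05. That unadjusted threshold was met by 1410, 1659 and 1729 of 45037 probe sets. Adjusted over the 6 pairs, the Krt4 limma p-values were 0.00119, 0.00596 and 0.233. The dimmer Krt4 probe set differed by only -0.03, -0.31 and -0.27 in these pairs, so its sign for raloxifene against tamoxifen was the opposite.

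The basal keratins did not pass in the single-array backgrounds on their brightest probe sets, and the values of Krt5 and Krt15 took opposite signs with different blockers. Krt15 read 6.54 with fulvestrant and 7.48 with E2+fulvestrant, a difference of 0.94 ± 0.17 (adjusted p = 0.0611). It read 7.16 with tamoxifen and 6.43 with E2+tamoxifen, a difference of -0.73 (adjusted p = 0.191), and 6.55 and 6.80 with raloxifene without and with E2. The difference that E2 made to Krt15 was higher with fulvestrant than with tamoxifen by 1.68 ± 0.24, which missed the threshold (adjusted p = 0.0979). Krt5 went from 8.84 to 9.38 with fulvestrant and from 9.12 to 8.93 with tamoxifen. Krt14 went from 8.13 to 8.57 with fulvestrant, from 8.30 to 8.37 with tamoxifen and from 8.27 to 8.22 with raloxifene. Its other probe sets differed by 0.46 and 0.33 with fulvestrant, -0.01 and 0.14 with tamoxifen, and 0.10 and 0.05 with raloxifene. The dim Krt17 differed by 0.24, -0.38 and -0.15 with fulvestrant, tamoxifen and raloxifene, and its dimmer probe set by 0.12, 0.25 and -0.02. Krt5 read 9.12 with raloxifene and 9.04 with E2+raloxifene.

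Krt7 followed Krt4 more closely than the other keratins of the set did. Krt7 (1423952_a_at) read 9.09 and 8.91 with vehicle, 9.60 and 9.30 with E2, 8.85 and 8.85 with acolbifene, and 9.06 and 9.003 with E2+acolbifene. It read 8.89, 9.18 and 8.92 with fulvestrant, raloxifene and tamoxifen, and 9.44, 9.10 and 9.42 when E2 was added. The E2, E2+fulvestrant and E2+tamoxifen arrays were thus the 4 highest. E2 differences in Krt7 of 0.56 with fulvestrant (adjusted p = 0.204) and 0.50 with tamoxifen (adjusted p = 0.269) did not pass over all probe sets.

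Trp63 depended on the probe set. The brightest one (1418158_at) read 6.84 and 7.30 with vehicle, 7.64 and 7.78 with E2, 7.61 and 7.54 with acolbifene, and 7.21 and 7.18 with E2+acolbifene. The single arrays lay between 7.12 and 7.44. E2 and acolbifene arrays each lay above vehicle, and the combination overlapped it. The E2 minus vehicle difference was 0.64 on this probe set and -0.09, 0.02 and -0.14 on the other 3.

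Genes of the skin differed in several of the same comparisons. Of 15 keratinocyte genes, 7 rose and 0 fell from acolbifene to E2+acolbifene, against 9.20% of all probe sets called: Krt77 by 1.35, Krtdap by 1.27, Krt10 by 1.06, Dmkn by 0.75, Lor by 0.55, Calm4 by 0.52 and Krt1 by 0.49, with a list median of 0.25 against -0.01 over all probe sets. From fulvestrant to E2+fulvestrant 6 rose (0.384% of all probe sets called), among them Krt77 by 1.53 and Krt1 by 1.49, and from tamoxifen to E2+tamoxifen 4 fell (0.180% called): Krt77 by 1.29, Krtdap by 1.28, Krt10 by 1.20 and Dmkn by 0.95. From raloxifene to E2+raloxifene 0 passed. Acolbifene against vehicle lowered Krtdap (-0.72) and Krt10 (-0.59). In the acolbifene, fulvestrant and tamoxifen backgrounds the E2 difference was 0.47, 0.94 and -0.73 for Krt15, 0.53, 0.54 and -0.19 for Krt5, and 0.36, 0.44 and 0.06 for Krt14, of which those with acolbifene passed. The median of the 15 genes against vehicle ran from -0.22 in acolbifene array 1 to 0.47 in the E2+fulvestrant array, and their summed level ranged from 11.18 to 12.03 on the log2 scale. The part of skin RNA in the keratin values was not tested.

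**Figure D4:**
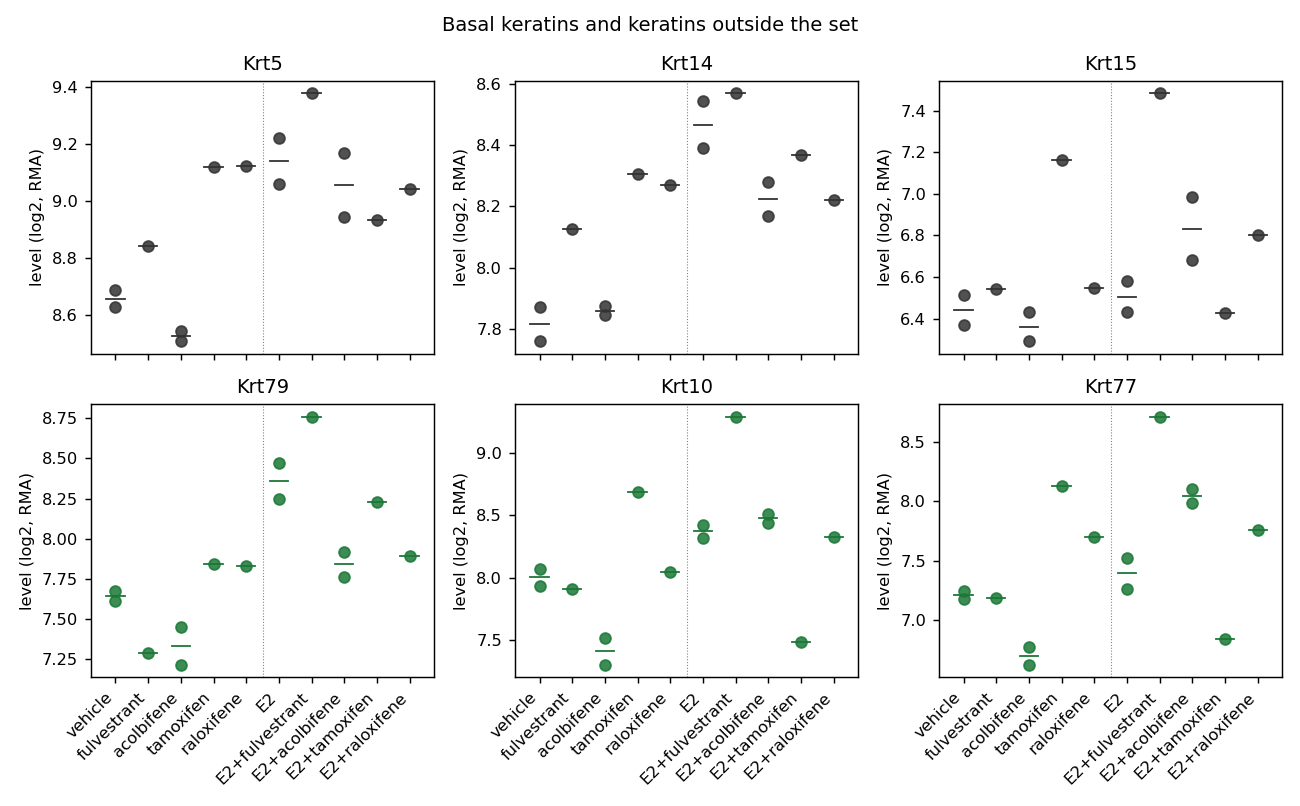
Levels (log2, RMA) of 3 basal keratins (upper row) and of Krt79, Krt10 and Krt77 (lower row) by treatment group, each point 1 array and each bar the group mean, with E2 groups right of the dotted line; the axes do not start at 0. Krt15, Krt10 and Krt77 share high points in tamoxifen and E2+fulvestrant and low points in acolbifene and E2+tamoxifen.

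Other keratins and the lists of epithelial and neighbouring cells were counted in the same contrast of E2+acolbifene with acolbifene, in which 9.20% of all probe sets were called. Of 39 other keratins, 5 rose and 0 fell (Krt1, Krt10, Krt27, Krt77 and Krt79); 6 of the keratinocyte genes are also among these 39. Of 20 measured genes of desmosomes and hemidesmosomes, the junctions that anchor keratin filaments, Perp (0.58), Pkp1 (0.45) and Pkp2 (0.38) rose and Plec (-0.34), the linker of filaments to hemidesmosomes, fell. Of 17 luminal genes the tight junction gene Cldn4 and Ly6d rose and 0 fell, and of 14 basal and myoepithelial genes 0 rose and 2 fell, the myosin light chain kinase Mylk (-0.41) and vimentin, Vim (-0.39). Muscle genes rose in 5 of 16 (list median 0.76), 1 of 8 adipocyte genes fell (Lep) and 2 of 12 lymphocyte genes fell (Ighm and Ptprc); their part in the keratin values was not tested.

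The genes most like Krt4 were sought by Pearson's r over the 14 arrays among 582 probe sets that spanned at least 1 log2 unit and were not dim. They were Aqp5, a water channel of glandular epithelium (r = 0.992), Rap1gap, a GTPase activator for Rap1 (0.981), F3, tissue factor (0.978), Padi2, a peptidylarginine deiminase (0.976), Mfsd4a (0.975) and Syn2, a synapsin (0.974). The arrays share their treatments, so these values describe a pattern and have no test. Aqp5 read 8.70 and 8.74 with vehicle, 10.60 and 10.37 with E2, 9.57 and 9.56 with E2+acolbifene, 9.86 with E2+raloxifene, 10.47 with E2+fulvestrant and 10.73 with E2+tamoxifen. It thus had the order of Krt4 among the E2 groups. Among keratins the values most like Krt4 were those of Krt7 (r = 0.92), Krt79 (0.90), Krt14 (0.84) and Krt5 (0.68). Krt79, a keratin of sebaceous and follicular openings, is the annotated gene after Krt4 on chromosome 15. The gene before Krt4, the dim Krt76, had r = 0.09. Krt79 read 7.67 and 7.61 with vehicle and 8.47 and 8.25 with E2. It rose by 0.51 in E2+acolbifene over acolbifene (adjusted p = 0.0289) and by 1.47 in E2+fulvestrant over fulvestrant (adjusted p = 0.00406). Krt79 read 7.83 with raloxifene and 7.89 with E2+raloxifene, and 7.84 with tamoxifen and 8.23 with E2+tamoxifen.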

How the data were processed

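Gene expression was measured in pooled mammary glands on 14 one-colour arrays, and the values used were the log2 levels in the authors' deposited table. Per the submitters' processing notes these came from RMA, with no version named. RMA corrects background, quantile normalizes arrays and summarises each probe set, which compresses weak signals and understates their folds. Murine U74Av2 arrays are named in the design text, but the probe sets match the annotation of a later mouse array, which gave the gene names: 34945 of 45037 probe sets had 1 symbol, 932 several and 9160 none, and 64 control probe sets were left out. The number of arrays limits the precision, and array medians ran from 7.16 to 7.23.

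The test was limma 3.58.1 under R 4.3.3 (lmFit, eBayes, Benjamini-Hochberg adjustment across the 45037 probe sets with a threshold of 0.05). The 4 replicated groups were compared in a fit of their 8 arrays. Comparisons with a lone array used all 14 arrays and a term for the raw-file code. The E2 pair alone sets that term, so the spread came from the vehicle, acolbifene and E2+acolbifene pairs. In that fit a comparison of a combination with E2 rests on E2 array 1, and a comparison of a lone blocker with vehicle passes through both E2 arrays. Intervals are 95%. On simulated data with the same 45037 probe sets, the 8-array fit of E2+acolbifene minus acolbifene recovered 87% of changes of 1 log2 unit and 100% of changes of 2, and the 14-array fit of E2+tamoxifen minus tamoxifen 53% and 96%. The simulated noise was independent between arrays, without code or tissue differences. At each size 100 probe sets were changed, whereas the data gave 4142 calls for E2+acolbifene minus acolbifene. The adjustment for multiple testing therefore differed from that in the data, and false calls are not given here. Changes under 1 log2 unit were not simulated, so recovery at the size of the basal keratin differences was not measured.

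The named genes were the 10 members of the set, genes of the listed markers and junctions, other keratins, and the 6 genes most like Krt4. The members and lists were chosen with earlier results of these data known. Alternatives were another quantile normalization, median centring, removal of dim probe sets, an intensity trend in eBayes, the mean of a gene's probe sets, a replicate block, the code term, and leaving out each replicated array.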

Additional observations from a re-analysis of the deposited data

Results flagged for a closer look

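The Krt4 response to E2 differed between blocker backgrounds by a test of the difference itself. The response with acolbifene minus that with fulvestrant was -2.32 (limma adjusted p = 0.00161), and with acolbifene minus that with tamoxifen -2.08 (adjusted p = 0.00472). The response with fulvestrant minus that with raloxifene was 2.03 (adjusted p = 0.0206), a call lost under 5 of 14 alternatives (adjusted p up to 0.157) and not made on the dimmer probe set (1.29, adjusted p = 0.336). Each rests on 1 array a side for fulvestrant, raloxifene and tamoxifen, and the comparisons were chosen after the values were seen.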

How the results depend on the processing

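Of 354 alternative values for the counts of called genes and the Krt4 response to E2, 311 stayed within the limits set for the main value and 43 moved; of 3425 values for single genes, 0 changed sign after being called, 30 lost a call, 41 gained it and 185, called neither before nor after, moved by at least the spread between arrays. The intensity trend gave more calls, of these genes and of all probe sets (3030 against 1649 for E2+acolbifene minus E2, 1733 against 377 for E2+acolbifene minus vehicle and 1437 against 269 for acolbifene minus vehicle): 4 genes for E2+acolbifene minus E2, 3 for E2+acolbifene minus vehicle, 1 for acolbifene minus vehicle, 4 for E2+fulvestrant minus fulvestrant, 5 for E2+tamoxifen minus tamoxifen, 3 for the acolbifene against tamoxifen E2 responses, and 1 each for E2+fulvestrant minus E2, fulvestrant minus raloxifene, E2+fulvestrant minus E2+tamoxifen, and the E2 responses of raloxifene against tamoxifen, acolbifene against raloxifene and fulvestrant against tamoxifen. Removing dim probe sets gave 3 genes for E2+acolbifene minus E2, 2 for E2+acolbifene minus vehicle, 2 for E2+fulvestrant minus fulvestrant and 1 for the E2 responses of raloxifene against tamoxifen. The mean of a gene's probe sets gave 2 for each of those first 3 comparisons, and a Krt4 response to E2 of 3.18 in place of 3.62. Median centring gave 3 for E2+acolbifene minus E2, and repeated quantile normalization 2 for E2+acolbifene minus acolbifene. Without the code term there were 2 for E2+fulvestrant minus fulvestrant and 0 for E2+raloxifene minus raloxifene, E2+fulvestrant minus E2+raloxifene, and the E2 responses of fulvestrant against raloxifene. The causes were not tested. Without dim probe sets, 2071 probe sets were called for E2+acolbifene minus E2 and 630 for E2+acolbifene minus vehicle. Under alternative settings, totals over all probe sets were counted only for replicated comparisons, and not for the mean of a gene's probe sets. The other counts have no share beside them and their directions are not given, so nothing is read from their size. Leaving out 1 array gave 0 to 4 genes for E2+acolbifene minus acolbifene, 1 to 2 for E2+acolbifene minus E2, 0 to 1 for E2+acolbifene minus vehicle, 0 to 1 for acolbifene minus vehicle, 1 to 2 for E2+fulvestrant minus fulvestrant, 0 to 1 for E2+raloxifene minus raloxifene, 0 to 1 for the E2 responses of fulvestrant against raloxifene, and 3.34 to 3.91 for the Krt4 response to E2; E2 arrays left out gave no value for lone blockers against vehicle, nor E2 array 1 for combinations against E2.

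Over all probe sets, E2+acolbifene minus acolbifene called 4142 (38.31% higher), 1141 (57.93%) after repeated quantile normalization, 6210 (19.71%) with median centring, 5632 (25.71%) without dim probe sets, 7219 with the trend, 2303 with the block and 38 to 3367 with 1 array left out. E2+acolbifene minus E2 called 1649 (44.63% higher), 1034 (26.6%) and 2529 (16.88%) with those first 2 settings, and E2+acolbifene minus vehicle 377 (54.11%) and 513 (32.55%) with median centring. Acolbifene minus vehicle called 269 (68.03%), and 215 (55.35%) after repeated quantile normalization. Replicate numbers did not pair the arrays: the correlations of the difference between both arrays of a group ran from -0.12 to 0.12 between groups. With a replicate block the counts of called genes were 3 for E2+acolbifene minus acolbifene, where Krt14 was lost (adjusted p = 0.0554), and 1, 1 and 0 for E2+acolbifene minus E2, minus vehicle and acolbifene minus vehicle, as without it; within replicate numbers 1 and 2 the Krt4 response to E2 was 3.84 and 3.41.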
